A study of Homo sapiens with 18 samples.

Results

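The levels of 40 genes of the cellular response to low oxygen and of glycolysis were followed across 18 RNA sequencing libraries of human neuroblastoma xenografts, which are tumours grown in mice from cultured cell lines. The genes are a list of symbols, and 39 of the 40 matched an Ensembl identifier among the 63677 in the gene tables. The symbol MXD1P1 matched none and has no values here. The 39 genes comprise 4 of oxygen sensing (HIF1A, EPAS1, EGLN1, EGLN3), 3 transporters (SLC2A1, SLC2A3, SLC16A3), 16 glycolytic enzymes, 3 regulators of glycolysis (PFKFB3, PFKFB4, PDK1), 5 genes for secreted or surface proteins (CA9, VEGFA, ADM, STC1, STC2) and 8 other hypoxia targets.

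The tumours came from the lines SKNAS, LAN-1 and KELLY, each with control tumours and tumours labelled Hmx1, in 3 libraries per group. Hmx1 is the name of a homeobox transcription factor, and the labels do not say whether the gene was raised or lowered in that arm. Strain and treatment are given as None for all libraries, and a MYCN-amp genotype label stands on 2 of the 3 KELLY control libraries. That label was not used to group libraries. In comparisons between lines, genotype and line cannot be told apart. Each line is a single culture source, the labels do not tie libraries to separate animals, and animal age is not stated. The p-values therefore measure only the spread between libraries, which may be technical.

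Hypoxia-inducible factors (HIFs) are pairs of an oxygen-regulated alpha subunit, such as the products of HIF1A and EPAS1, with a stable beta subunit. When oxygen is plentiful, prolyl hydroxylases of the EGLN family mark the alpha subunit for destruction; when it is scarce, the factor accumulates and switches on genes for glucose uptake, glycolysis, pH control and vessel growth. The alpha subunits are regulated mainly as proteins, so an mRNA level of HIF1A or EPAS1 is not a measure of their activity. In solid tumours, neuroblastoma included, these genes are widely used as a readout of poor oxygen supply.

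Levels are given in TPM, the deposited length-scaled transcript share. Sequencing depth was not examined, since TPM keeps none and the deposited coverage was not used. Between 14420 and 16441 genes reached 1 TPM. Mitochondrially encoded genes took 4.47% to 33.8% of the TPM of a library, most unevenly in the KELLY controls (25.5% ± 11.1, SD, n = 3, against 18.5% ± 2.54 in KELLY Hmx1). HMX1 was listed at 0 in the SKNAS controls and lay between 0.193 and 1.24 TPM in SKNAS Hmx1, while LAN-1 controls held 11.6 ± 0.413 and LAN-1 Hmx1 13.2 ± 2.89 TPM, and KELLY controls 5.70 ± 1.91 and KELLY Hmx1 5.50 ± 0.861 TPM (n = 3). The neuroblastoma markers HAND2 and DBH were well above 1 TPM in all lines, while TH was low in SKNAS, at a mean of 2.88 TPM in the controls and 0.107 TPM in Hmx1. Of the 8 endothelial markers PECAM1 was listed at 0 throughout. Others were detected, such as VWF at means of 5.11 and 17.1 TPM in KELLY control and Hmx1. The summed TPM of the 8 markers was uneven in KELLY Hmx1, from 8.27 to 42.9 with a median of 12.9. Of the 8, 4 were under 1 TPM in every KELLY Hmx1 library. CDH5 had means of 2.52 and 3.47 TPM in SKNAS control and Hmx1.

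Glycolytic enzymes dominated the list. GAPDH, which oxidises glyceraldehyde 3-phosphate, ranked first in the controls of every line, at 3415 ± 343 TPM in SKNAS, 7675 ± 289 TPM in LAN-1 and a mean of 8452 TPM in KELLY. LDHB, the lactate dehydrogenase subunit that favours pyruvate formation, and TPI1, triosephosphate isomerase, were among the 4 most abundant members in each line. At the other end, SLC16A3, the lactate exporter MCT4, ranked last in SKNAS and LAN-1, and SLC2A3, the high-affinity glucose transporter GLUT3, ranked last in KELLY. The 39 genes together took 0.932% to 2.17% of the TPM of a library.

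**Figure D1:**
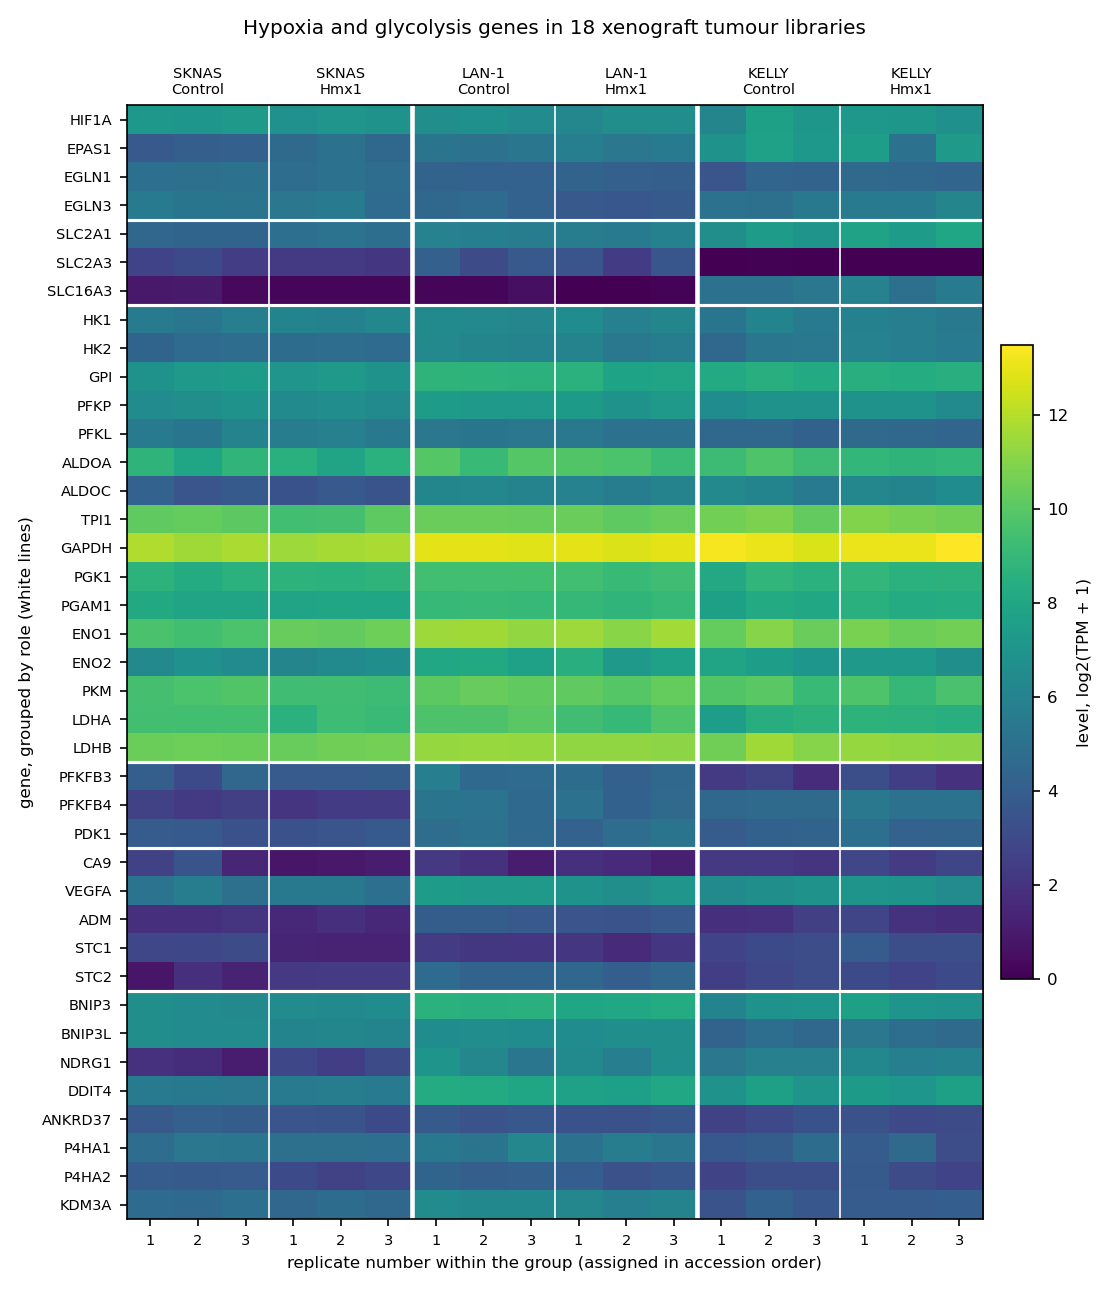
Level of each of the 39 genes (rows, grouped by role) in each of the 18 libraries (columns, by line, arm and replicate), as log2(TPM + 1) in colour. SLC16A3 is dark in the 12 SKNAS and LAN-1 libraries and SLC2A3 in the 6 KELLY libraries, while the enzyme block from HK1 to LDHB is darker in SKNAS than in LAN-1.

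In SKNAS tumours, 7 of the 39 genes differed between the Hmx1 and control arms. ENO1, SLC2A1, STC2 and NDRG1 were higher in Hmx1, and STC1, CA9 and P4HA2 were lower. A gene was called changed at a Benjamini-Hochberg adjusted p under 0.05, with p-values from limma on log2(TPM + 1), adjusted over all 18650 genes tested. Over all genes, 8.76% were called in this comparison, 4.96% higher and 3.80% lower. The median change was -0.13 on the log2 scale over the 39 genes and 0 over all genes. Fewer cells of a type and less RNA per cell cannot be told apart in bulk tumours.

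STC1 encodes stanniocalcin 1, a secreted glycoprotein hormone (GRCh37 chromosome 8, 23699428 to 23712320). It stood at 6.35, 6.47 and 7.66 TPM in the SKNAS control libraries and at 1.63, 1.42 and 1.58 TPM in the Hmx1 libraries. All 3 Hmx1 libraries lay far below all 3 controls. STC1 fell by 1.62 on the log2 scale (SE 0.208, adjusted p = 3.45e-05), and the call held under all 13 alternative settings.

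Its paralogue STC2 moved the other way (chromosome 5, 172741716 to 172756506). The control libraries held 0.780, 2.48 and 1.40 TPM and the Hmx1 libraries 3.68, 4.14 and 4.22 TPM. The Hmx1 libraries were close together and above every control. STC2 rose by 1.02 (SE 0.239, adjusted p = 0.00955), and did not pass without control replicate 1 (0.79, adjusted p = 0.0716).

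CA9, carbonic anhydrase IX, is a surface enzyme that controls pH outside hypoxic cells (chromosome 9, 35673853 to 35681156). Its level was 5.36, 10.2 and 1.70 TPM in the controls and 0.775, 0.904 and 1.02 TPM in Hmx1. The controls were widely spread, yet the lowest of them was above the highest Hmx1 library. CA9 fell by 1.61 (SE 0.382, adjusted p = 0.0109). The call did not hold without control replicate 2, the highest library (-1.13, adjusted p = 0.0701), or when only the SKNAS groups were fitted (adjusted p = 0.0589). The adjusted p of its alternatives spanned 0.000275 to 0.0701. CA9 overlaps ARHGEF39 on the opposite strand, and whether counting used strand is not stated.

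P4HA2, a catalytic subunit of the prolyl 4-hydroxylase that stabilises collagen, is on chromosome 5 (131527531 to 131631008). Controls held 13.9, 13.3 and 13.5 TPM and Hmx1 libraries 7.26, 5.16 and 6.71 TPM. The arms did not overlap. P4HA2 fell by 0.99 (SE 0.247, adjusted p = 0.0150), a call lost without control replicate 1 (adjusted p = 0.0561) or Hmx1 replicate 2 (adjusted p = 0.0874). It overlaps PDLIM4 on the opposite strand. P4HA1, the other catalytic subunit on the list, had 34.98 ± 6.90 and 30.2 ± 1.08 TPM in the SKNAS control and Hmx1 arms (n = 3) and did not pass.

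ENO1, enolase 1, converts 2-phosphoglycerate to phosphoenolpyruvate (chromosome 1, 8921061 to 8939308). The control libraries held 787, 669 and 807 TPM and the Hmx1 libraries 1284, 1221 and 1433 TPM. Every Hmx1 library was above every control. ENO1 rose by 0.80 (SE 0.181, adjusted p = 0.00748) under all 13 alternatives as well. It was the only one of the 16 glycolytic enzymes called in SKNAS. Reads may be split with its near-identical copies. Their summed level was uneven in the controls, from 0.532 to 31.3 TPM (mean 20.02 TPM). In Hmx1 it was 39.0 to 41.1 TPM (mean 39.98 TPM).

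SLC2A1 encodes GLUT1, the basal glucose importer (chromosome 1, 43391052 to 43424530). It rose from 20.5, 19.4 and 19.6 TPM to 29.8, 33.8 and 28.6 TPM, with tight and separate arms (0.60, SE 0.176, adjusted p = 0.0391). Leaving out any of the 6 SKNAS libraries ended that call, with changes of 0.54 to 0.65 and adjusted p-values of 0.0742 to 0.166.

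NDRG1, a stress-responsive gene induced by hypoxia and repressed by MYC proteins, lies on chromosome 8 (134249414 to 134314265). The controls held 2.81, 2.40 and 1.07 TPM and the Hmx1 libraries 6.60, 4.71 and 7.51 TPM. Both arms stayed low beside the other lines but did not overlap. NDRG1 rose by 1.26 (SE 0.349, adjusted p = 0.0290). The call was lost without control replicate 2 (adjusted p = 0.0549), control replicate 3 (0.99, adjusted p = 0.146), Hmx1 replicate 1 (adjusted p = 0.0989) or Hmx1 replicate 3 (adjusted p = 0.125), with FPKM (adjusted p = 0.0579) and with no filter on low values (adjusted p = 0.0555).

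**Figure D2:**
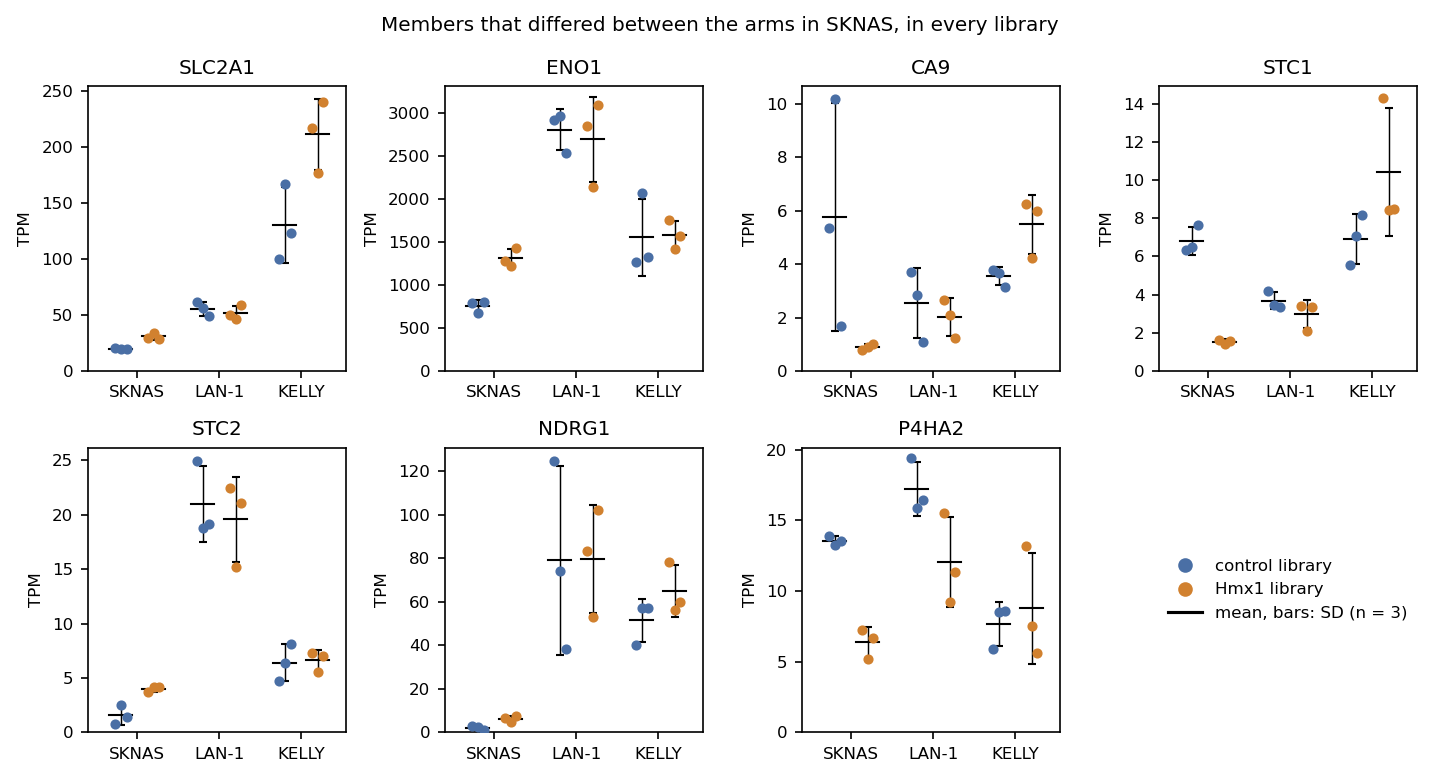
TPM of the 7 genes called in SKNAS, per library, in all 3 lines (points; black bars give mean and SD, n = 3; linear axes from 0). In SKNAS the arms do not overlap for any of the 7 genes, and STC1 runs from 6.35 to 7.66 TPM in controls against 1.42 to 1.63 TPM in Hmx1.

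The genes that fell and rose were next set beside the HIF-binding core in their promoters, to show where that motif lies in genes of opposite direction. RefSeq promoter windows (GRCh38.p14, 250 bases before to 50 after a start) were held for 34 of the 40 symbols. STC1 and NDRG1, both called in SKNAS, were not among them. The cores searched were ACGTG and GCGTG on the sense strand and CACGT and CACGC, which are the same cores on the antisense strand. Printed here are the 250 bases before the start of 2 genes that fell (CA9, P4HA2) and 2 that rose (ENO1, STC2), 5′ to 3′ on the sense strand, with cores in capitals. They are CA9 at chr9:35673678-35673927 (plus strand), P4HA2 at chr5:132227092-132227341 (minus strand), ENO1 at chr1:8878687-8878936 (minus strand) and STC2 at chr5:173328415-173328664 (minus strand).
CA9: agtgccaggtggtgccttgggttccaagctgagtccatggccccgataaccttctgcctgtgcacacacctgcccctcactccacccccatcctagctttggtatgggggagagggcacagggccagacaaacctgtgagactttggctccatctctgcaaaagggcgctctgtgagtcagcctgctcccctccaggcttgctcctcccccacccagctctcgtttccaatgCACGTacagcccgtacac
P4HA2: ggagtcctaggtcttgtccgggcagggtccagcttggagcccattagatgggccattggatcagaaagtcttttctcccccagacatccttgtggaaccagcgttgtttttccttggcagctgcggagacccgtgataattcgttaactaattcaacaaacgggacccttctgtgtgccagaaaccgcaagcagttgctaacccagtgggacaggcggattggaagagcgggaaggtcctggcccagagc
ENO1: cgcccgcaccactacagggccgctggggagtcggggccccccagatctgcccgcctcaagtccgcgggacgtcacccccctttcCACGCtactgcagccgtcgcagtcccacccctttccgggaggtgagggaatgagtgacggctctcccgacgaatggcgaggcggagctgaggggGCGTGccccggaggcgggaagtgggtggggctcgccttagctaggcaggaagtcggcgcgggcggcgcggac
STC2: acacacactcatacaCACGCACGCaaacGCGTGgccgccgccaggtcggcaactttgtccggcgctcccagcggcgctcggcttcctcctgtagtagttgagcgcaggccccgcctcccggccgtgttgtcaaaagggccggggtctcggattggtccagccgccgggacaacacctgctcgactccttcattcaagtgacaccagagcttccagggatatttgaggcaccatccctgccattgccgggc

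Counted from the start, with the first base before it at -1, CA9 has an antisense ACGTG core whose first sense base is at -18. ENO1 has a GCGTG core on each strand, at -166 (antisense) and -72 (sense). The 3 GCGTG cores of STC2 sit far upstream, at -235, -231 and -222, the first pair overlapping. No core stands in the printed P4HA2 stretch or its window. The SLC2A1 window has its only core after the start, at 26. Across the list, 31 of the 34 genes with a window had a core in at least 1 of their windows, compared with 52.4% of all 27305 genes of the promoter table. Per window the shares were 73.2% of 56 member windows and 48.4% of 35116 windows. Member windows were also richer in G and C (median 68.5% against 58.7%) and in CG pairs (29.5 against 14), and both cores hold a CG pair. These shares are descriptions, and a match is not a measured binding site.

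Over the 39 genes in SKNAS, the called ones included, 7 did not overlap between the arms and were higher in Hmx1 (14.8% of all genes) and 10 were lower (16.0% of all genes). Below the call threshold these were EPAS1, HK1 and DDIT4 (higher) and HIF1A, SLC2A3, SLC16A3, PKM, LDHA, BNIP3L and ANKRD37 (lower). HK1, the housekeeping hexokinase, had 45.8 ± 7.49 and 67.5 ± 7.89 TPM in the control and Hmx1 arms (n = 3, adjusted p = 0.145). BNIP3L, a mitophagy receptor, had 91.7 ± 5.86 and 67.6 ± 2.88 TPM (adjusted p = 0.153). Neither passed the test, though HK1 passed in 4 and BNIP3L in 2 of 13 alternatives.

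The oxygen-sensing genes did not pass in SKNAS in the main fit, which pools the spread of all 6 groups. HIF1A, the widely expressed alpha subunit, stood at 142, 134 and 155 TPM in the controls and 111.5, 132 and 118.8 TPM in Hmx1. EPAS1, the alpha subunit HIF-2α found in endothelium and sympathetic precursors, stood at 12.5, 15.8 and 16.4 TPM and at 24.3, 33.0 and 21.995 TPM. The first was lower and the second higher in every Hmx1 library than in every control, at log2 differences of -0.25 (adjusted p = 0.735) and 0.78 (adjusted p = 0.366). EPAS1 passed in 1 of 13 alternatives, the fit of the SKNAS groups only, where its adjusted p was 0.0302. The pooled spread of the main fit takes in KELLY Hmx1 replicate 2, at 31.9 TPM beside 117.9 to 208 TPM in the other KELLY libraries. The part of that library in the SKNAS result was not tested. VEGFA, the main angiogenic growth factor, overlapped between the arms (33.5, 50.2 and 30.2 TPM against 42.5, 42.4 and 29.8 TPM). So did PDK1, the kinase that keeps pyruvate out of mitochondria (14.2, 12.97 and 9.55 TPM against 9.41, 10.6 and 13.2 TPM). LDHA, the lactate dehydrogenase subunit that favours lactate, had 675, 663 and 679 TPM in controls and 382, 628 and 558 TPM in Hmx1, where Hmx1 replicate 1 was lowest (-0.39, adjusted p = 0.461).

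Some genes used as markers of other cell types also differed in the same comparison. The summed TPM of 8 fibroblast markers was 1135 to 1336 in SKNAS control and 803 to 896 in SKNAS Hmx1 libraries, with 3 of 8 called lower. It was 15.4 to 50.5 in LAN-1 and 50.1 to 169 in KELLY libraries. In SKNAS, COL1A1 (means of 345 and 211 TPM) and COL3A1 (602 and 392 TPM) carried most of the sum. The means of DCN (69.3 and 101.2 TPM), PDGFRB (26.9 and 39.9 TPM) and COL1A2 (10.8 and 12.4 TPM) were higher in SKNAS Hmx1. The leukocyte gene PTPRC had mean levels of 91.9 and 230.6 TPM in the SKNAS arms, while the other 7 leukocyte markers averaged under 2 TPM and ITGAM and AIF1 were at or near 0. The tumours grew in mice, and removal of mouse reads is not stated. Which cells these transcripts came from, tumour cells or others, was not tested. Nor was the part of other cell types in the SKNAS results.

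In LAN-1 tumours, no member was called by limma (0 of 39, against 0.450% of all genes), and 3 had an unadjusted p under 0.05, as did 7.19% of all genes. The arms were apart for 11 genes: EPAS1 was higher in Hmx1 (6.34% of all genes were higher without overlap) and 10 were lower (9.47% of all genes). The largest differences were in EGLN3, the prolyl hydroxylase that is itself a HIF target, in GPI, glucose-6-phosphate isomerase, and in PFKFB3, which makes the allosteric activator of phosphofructokinase. EGLN3 stood at 21.7, 25.3 and 18.2 TPM in controls and 12.8, 11.7 and 13.1 TPM in Hmx1 (-0.74, SE 0.226, adjusted p = 0.268). All 3 Hmx1 libraries were below the controls. GPI stood at 432, 419 and 410.5 TPM and at 395, 222 and 237 TPM (-0.61, SE 0.192, adjusted p = 0.295). Hmx1 replicate 1 was near the controls and the other two far lower, and without that library GPI was called. PFKFB3, at 54.1, 23.5 and 25.6 TPM against 26.5, 16.4 and 22.2 TPM, overlapped between the arms (-0.56, adjusted p = 0.926).

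Small differences in LAN-1 pointed mostly downwards. The log2 difference was negative for 36 of 39 genes and for all 16 glycolytic enzymes, compared with 58.9% of all genes, and the median was -0.15 against -0.05 over all genes. After median-ratio scaling, in which each library is divided by its median ratio to a reference, 34 of 39 and 14 of 16 were negative. VEGFA stood at 165, 150.1 and 156 TPM in controls and 117.7, 99.97 and 130.2 TPM in Hmx1, apart but not called (adjusted p = 0.672). SLC2A1 (61.2, 55.8 and 49.2 against 49.9, 46.3 and 58.7 TPM), LDHA (824, 835 and 1039 against 638, 522 and 876 TPM) and PDK1 (27.4, 32.5 and 23.6 against 17.999, 27.5 and 35.5 TPM) overlapped between the arms. So did CA9, at 3.71, 2.83 and 1.10 against 2.66, 2.11 and 1.24 TPM, and HIF1A, at 100.3, 106.99 and 89.3 against 75.4, 98.5 and 101.7 TPM. EPAS1, at 35.4, 33.0 and 37.8 against 55.0, 39.5 and 48.0 TPM, was higher in each Hmx1 library.

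KELLY tumours gave the opposite lean. No member was called by limma (0 of 39, against 0.0912% of all genes), and 9 had an unadjusted p under 0.05, as did 6.85% of all genes. The difference was positive for 32 of 39 genes, compared with 53.1% of all genes, and the median was 0.18 against 0.02 over all genes. Arms were apart for 7 genes that were higher in Hmx1 (4.46% of all genes) and for ALDOA, aldolase A, which was lower (2.21% of all genes). The 3 largest differences were in SLC2A1, HK2 and EPAS1. SLC2A1 stood at 100.1, 167 and 123.6 TPM in controls and 217, 177 and 240.1 TPM in Hmx1 (0.72, SE 0.176, adjusted p = 0.231), with every Hmx1 library above every control. It was called without control replicate 2, the highest control. HK2, the inducible hexokinase, stood at 22.6, 37.9 and 41.3 TPM and at 62.05, 52.7 and 47.2 TPM, also without overlap (0.69, SE 0.214, adjusted p = 0.437).

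EPAS1 in KELLY rested on a single library. The controls held 117.9, 208 and 146 TPM and the Hmx1 libraries 178, 31.9 and 148 TPM, so Hmx1 replicate 2 lay far below the other 5 (-0.69, SE 0.425, adjusted p = 0.866). HIF1A in the same libraries was 70.0, 203 and 139 TPM in controls and 146, 141 and 109.1 TPM in Hmx1, where replicate 2 did not stand apart.

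The remaining key targets in KELLY were not called. CA9 was higher in every Hmx1 library (3.78, 3.69 and 3.16 against 6.26, 4.22 and 6.01 TPM). LDHA (190.0, 340.0 and 409.8 against 420.2, 405 and 362 TPM), VEGFA (82.8, 104 and 117.8 against 122.95, 116.9 and 89.3 TPM) and PDK1 (14.2, 17.4 and 18.9 against 29.8, 18.1 and 18.7 TPM) overlapped. Control replicate 1, which had the largest mitochondrial share, was the lowest KELLY library for HIF1A, LDHA and VEGFA, among others. For other members it was not low: it was the highest KELLY library for ENO2 (235 TPM) and the highest KELLY control for GAPDH (9882 TPM) and ALDOC (81.2 TPM). With mitochondrially encoded genes removed and the rest rescaled, the members' median in KELLY was 0.05 against -0.06 over all genes. Without control replicates 1 and 3, which leaves replicate 2 as the only KELLY control, it was 0.05 against -0.22. How far the mitochondrial share accounts for the lean was not tested.

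**Figure D3:**
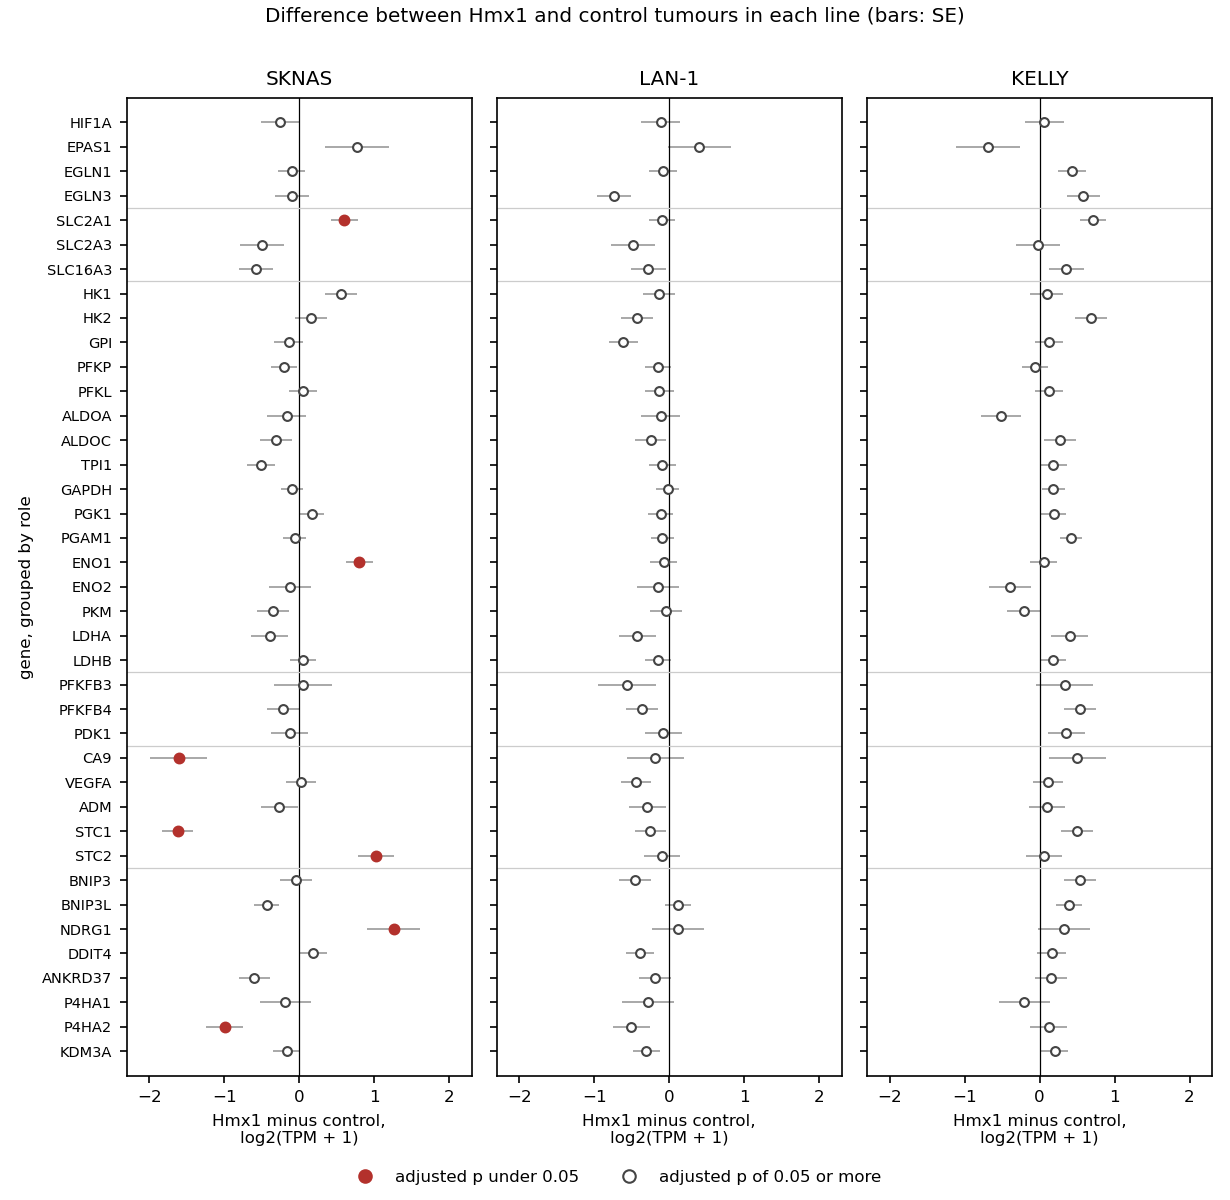
Hmx1 minus control difference of each gene on the log2(TPM + 1) scale (points, bars give SE), by line; filled points passed an adjusted p of 0.05. The 7 filled points are all in SKNAS, 36 of 39 points lie left of 0 in LAN-1 and 32 of 39 lie right of 0 in KELLY.

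The difference between lines in the Hmx1 effect was tested directly. Between SKNAS and LAN-1, STC1 was the only member called (1 of 39, against 4.99% of all genes): its effect was lower in SKNAS by 1.36 on the log2 scale (-1.36, SE 0.295, adjusted p = 0.00869) in the main and all 19 alternative fits. STC1 in LAN-1 was 4.20, 3.48 and 3.37 TPM in controls and 3.41, 2.11 and 3.37 TPM in Hmx1, with no clear gap. Between SKNAS and KELLY, STC1 and CA9 were called (2 of 39, against 4.85% of all genes). For STC1 the difference was -2.12 (SE 0.295, adjusted p = 0.000181), again in all 20 alternatives. In KELLY the gene ran from 5.57, 7.06 and 8.18 TPM in controls to 14.3, 8.43 and 8.51 TPM in Hmx1, each Hmx1 library being above the controls.

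For CA9 the difference between SKNAS and KELLY was -2.11 (SE 0.540, adjusted p = 0.0301). It passed in 10 of 20 alternatives. It did not pass without SKNAS control replicate 1 (adjusted p = 0.0758) or 2 (-1.63, adjusted p = 0.0698) or any SKNAS Hmx1 replicate (0.0577 to 0.0759). The same held without KELLY control replicate 3 (adjusted p = 0.0639), KELLY Hmx1 replicate 1 (adjusted p = 0.0708) or 3 (adjusted p = 0.0673) or the filter on low values (adjusted p = 0.0626). Nor did it pass without KELLY controls 1 and 3 together, which leaves replicate 2 as the only KELLY control (-2.06). ENO1 missed the threshold in both tests (0.87, adjusted p = 0.0605 against LAN-1, and 0.75, adjusted p = 0.121 against KELLY). It passed in 5 of 19 and 5 of 20 alternatives, median-ratio scaling, quantile normalization, FPKM and removal of mitochondrially encoded genes among them in both tests. Between LAN-1 and KELLY no member was called by limma (0 of 39, against 0.209% of all genes), 9 had an unadjusted p under 0.05 (6.87% of all genes did), and 1, HK2, was called after median-ratio scaling. The 3 tests share arms with each other.

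Differences between the control tumours of the lines were far larger. Comparisons between lines depend on the scaling more than those within lines: the median of all genes was 0.18 for SKNAS minus LAN-1, 0.54 for SKNAS minus KELLY and 0.34 for LAN-1 minus KELLY in TPM, and 0.04, 0.00 and -0.02 after median-ratio scaling. The 3 comparisons share their control arms.

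SKNAS controls had lower levels of most members than LAN-1 controls. Of 39 genes, 26 were lower and 3 higher (29 called, against 52.0% of all genes: 20.5% lower and 31.5% higher), and the median was -1.05 against 0.18 over all genes. With median-ratio scaling 27 were lower and 3 higher, with a median of -1.22. Among the 16 glycolytic enzymes 13 were lower and none was higher. The enzymes' summed level was 9725 ± 482 TPM in SKNAS and 19693 ± 455 TPM in LAN-1 controls (n = 3). ENO1 was lower by 1.90 on that scale (-1.90, SE 0.181, adjusted p = 9.51e-08). The 3 higher genes were the prolyl hydroxylases EGLN1 (0.73, adjusted p = 0.00306) and EGLN3 (0.83, adjusted p = 0.00513) and STC1 (0.74, adjusted p = 0.00649, not passed under quantile normalization).

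The 4 largest gaps between SKNAS and LAN-1 were in NDRG1, STC2, DDIT4 and PFKFB4. NDRG1 was at 1.07 to 2.81 TPM in SKNAS controls and at 125, 74.2 and 38.4 TPM in LAN-1 controls (-4.59, SE 0.349, adjusted p = 4.88e-09). STC2 was at 0.780 to 2.48 TPM against 24.98, 18.8 and 19.2 TPM (-3.15, SE 0.239, adjusted p = 4.85e-09). The lines did not overlap for either gene. DDIT4, an inhibitor of mTORC1, stood at 45.3, 42.8 and 41.6 TPM against 318, 296 and 247 TPM (-2.70, SE 0.191, adjusted p = 1.87e-09). PFKFB4, a fructose 2,6-bisphosphate enzyme, stood at 5.25, 3.85 and 4.90 TPM against 35.6, 34.5 and 23.5 TPM (-2.49, SE 0.213, adjusted p = 2.29e-08). Each was several times higher in every LAN-1 library. Without overlap, 29 genes were lower in SKNAS (26.2% of all genes) and 4 higher (40.3% of all genes).

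Against KELLY controls, SKNAS had 15 lower and 10 higher members (25 called, against 65.7% of all genes: 16.1% lower and 49.5% higher). This split moved with the scaling, to 27 lower and 7 higher by median ratio, 22 and 6 by quantile normalization and 22 and 9 in FPKM. The median was -0.15 in TPM and -0.76 by median ratio. Without overlap, 15 genes were lower in SKNAS (15.9% of all genes) and 10 higher (47.7% of all genes). The transporters marked the contrast. SLC16A3 was at 0.903, 0.996 and 0.288 TPM in SKNAS and at 31.8, 32.0 and 39.3 TPM in KELLY (-4.37, SE 0.229, adjusted p = 3.17e-11). SLC2A3 was at 5.47, 7.03 and 4.50 TPM in SKNAS but listed at 0 in 2 KELLY controls and at 0.0504 TPM in the other (2.70, SE 0.292, adjusted p = 4.24e-07). Both gaps separated every library of the lines.

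NDRG1 and EPAS1 were likewise lower in SKNAS. NDRG1 in KELLY controls was 40.1, 57.3 and 57.3 TPM (-4.12, SE 0.349, adjusted p = 1.96e-08). EPAS1, at 12.5 to 16.4 TPM in SKNAS, was 117.9 to 208 TPM in KELLY (-3.29, SE 0.425, adjusted p = 3.49e-06). The reverse held for BNIP3L, at 91.7 ± 5.86 TPM in SKNAS and 22.8 ± 4.89 TPM in KELLY controls (1.98, adjusted p = 2.42e-08), and for LDHA, at 663 to 679 TPM against 190.0 to 409.8 TPM (1.17, adjusted p = 0.000515).

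LAN-1 controls exceeded KELLY controls in 22 members and were lower in 5 (27 called, against 51.8% of all genes: 38.2% higher and 13.6% lower). The split was 14 higher and 9 lower by median ratio, 16 and 8 by quantile normalization and without mitochondrially encoded genes, and 17 and 7 in FPKM. The members' median was 0.64 against 0.34 over all genes. With KELLY control replicate 2 as the only KELLY control it was 0.44 against 0.08. Among the 8 other HIF targets 7 were higher and none lower, and 6 by median ratio. For glycolytic enzymes the count fell from 9 higher and 0 lower to 4 higher and 2 lower by median ratio. Without overlap, 23 genes were higher in LAN-1 (40.6% of all genes) and 5 lower (15.2% of all genes).

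SLC16A3 again gave the largest gap (0.192, 0.136 and 0.488 TPM in LAN-1, -4.80, SE 0.229, adjusted p = 2.16e-11). It was followed by SLC2A3, with 16.4, 7.54 and 12.7 TPM in LAN-1 (3.64, SE 0.292, adjusted p = 1.98e-08). PFKFB3 was at 54.1, 23.5 and 25.6 TPM in LAN-1 and at 3.97, 5.18 and 2.28 TPM in KELLY (2.83, SE 0.385, adjusted p = 1.13e-05). KDM3A, a hypoxia-induced histone H3 lysine demethylase, was at 88.6, 78.0 and 77.3 TPM against 9.75, 17.0 and 11.4 TPM (2.62, SE 0.180, adjusted p = 2.74e-09). All 4 genes separated the lines without overlap, so KELLY controls had the MCT4 lactate exporter and almost no GLUT3 transcript, and the reverse was true of LAN-1. Endothelial marker sums were 7.95 to 13.2 TPM in KELLY controls, 7.22 to 10.3 TPM in SKNAS controls and 1.11 to 1.34 TPM in LAN-1 controls. In KELLY controls VWF (mean 5.11 TPM) and ENG (2.60 TPM) were highest, and KDR and CLDN5 had means of 1.23 and 1.11 TPM. PECAM1 was at 0 there, and CDH5, TEK and TIE1 had means of 0.0405, 0.140 and 0.200 TPM. The part of endothelial cells in the EPAS1 levels was not tested.

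**Figure D4:**
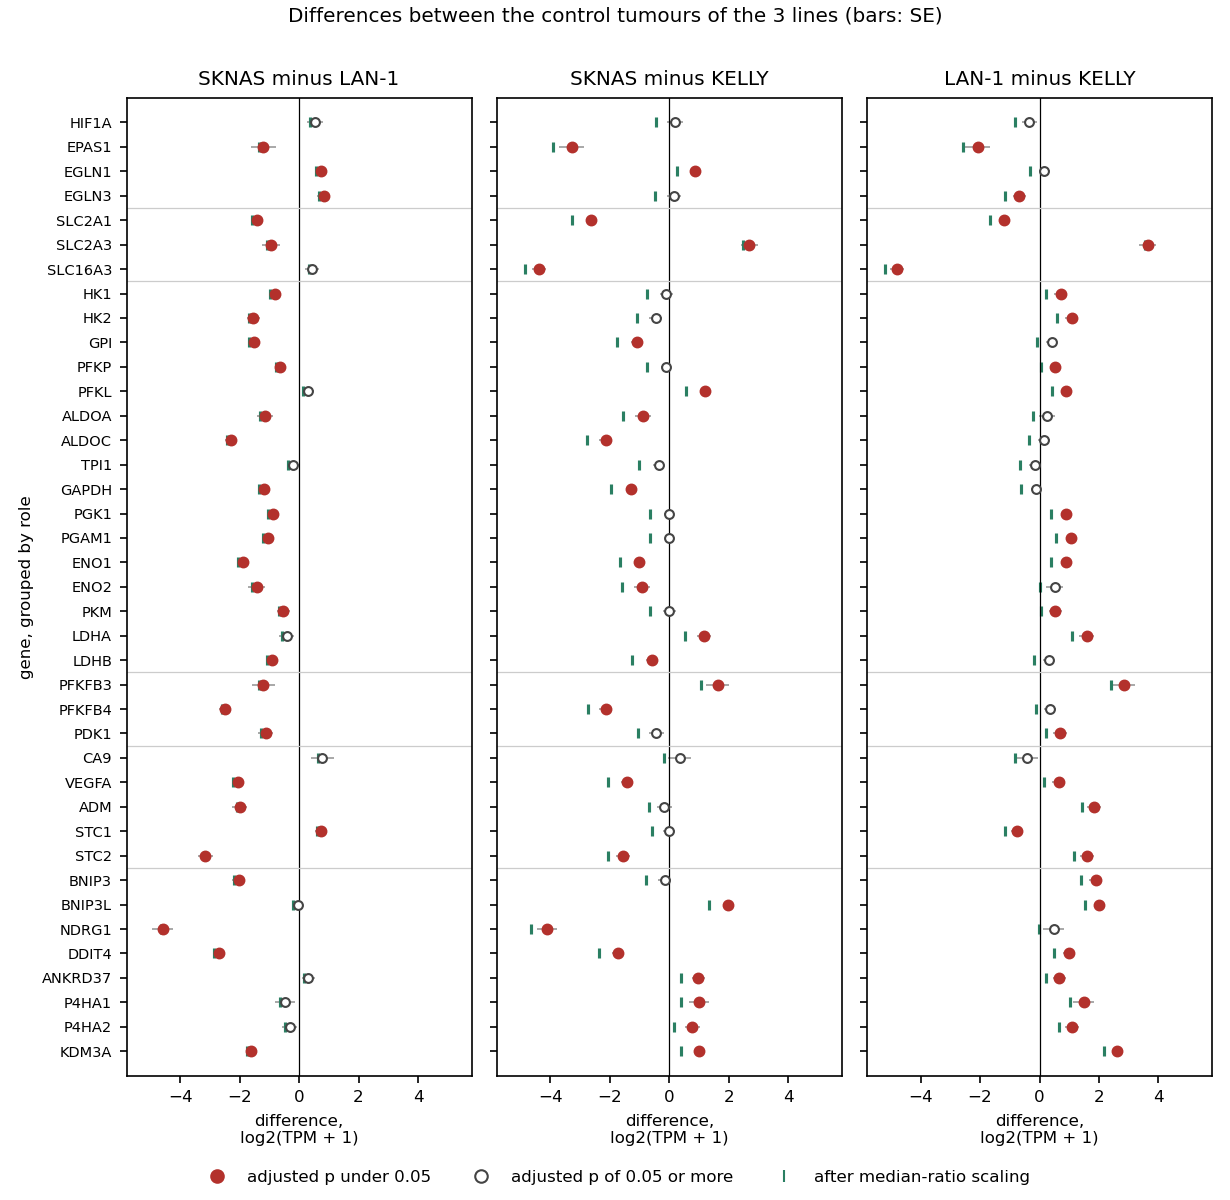
Differences between the control tumours of each pair of lines, per gene, on the log2(TPM + 1) scale (points, bars give SE; filled at an adjusted p under 0.05; green ticks give the same difference after median-ratio scaling). SKNAS minus LAN-1 is shifted left of 0 for 31 of 39 genes, and the median moves from -0.15 to -0.76 with the ticks for SKNAS minus KELLY.

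Within a library, the balance between isoenzymes does not depend on the scaling of that library. These pairs were chosen from a longer list after their values were seen and are descriptions. LDHA made up 31.3% to 32.8% of the summed LDHA and LDHB TPM in SKNAS controls, 22.7% to 29.6% in SKNAS Hmx1, 23.8% to 28.3% and 17.8% to 27.8% in the LAN-1 arms, and 10.04% to 16.2% and 13.8% to 14.3% in the KELLY arms. LDHB was thus the larger part in every library. HK2 made up 45.5% to 48.3% of HK1 and HK2 in LAN-1 controls and 41.2% to 42.4% in LAN-1 Hmx1, but 36.3% to 46.5% and 49.3% to 52.5% in the KELLY arms, so the arms were apart in opposite directions. In SKNAS the HK2 share overlapped between the arms, at 30.3% to 39.1% and 25.1% to 31.2%. HIF1A made up 89.5% to 91.9% of HIF1A and EPAS1 in SKNAS controls and 79.97% to 84.4% in SKNAS Hmx1. In LAN-1 the share was 70.2% to 76.4% and 57.8% to 71.4%. In KELLY it was 37.2% to 49.4% in controls and 45.1%, 81.5% and 42.5% in Hmx1. The 81.5% was that of replicate 2, the library low in EPAS1. BNIP3, the paralogue of BNIP3L, made up 78.7% to 80.8% of the pair in LAN-1 controls and 71.5% to 75.0% in LAN-1 Hmx1, and 47.6% to 50.8% and 53.7% to 58.1% in the SKNAS arms. In KELLY the BNIP3 share overlapped, at 78.3% to 85.2% in controls and 82.1% to 83.7% in Hmx1. BNIP3 has 42 pseudogene copies by name, with which its reads may be shared. Their summed level was 1.10 to 7.12 TPM per library, beside BNIP3 group means of 88.0 TPM (SKNAS Hmx1) to 373 TPM (LAN-1 control).

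**Figure D5:**
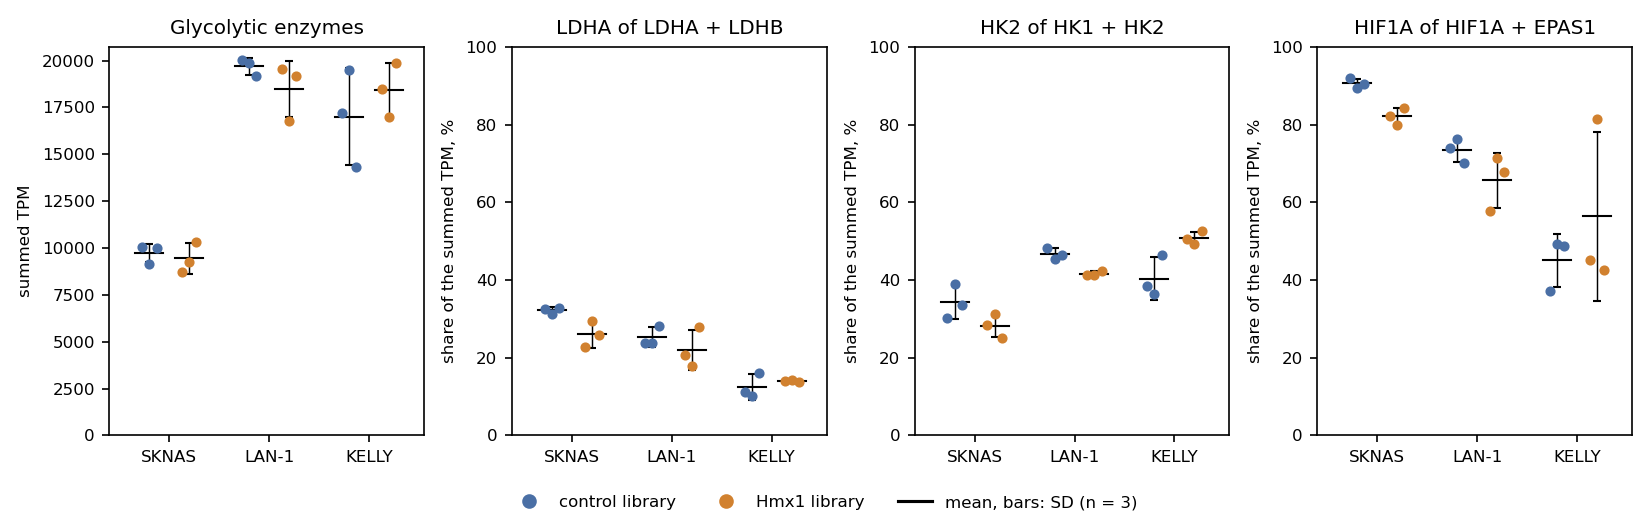
Summed TPM of the 16 glycolytic enzymes, and shares (%) of LDHA, HK2 and HIF1A in their pairs, per library (points; black bars give mean and SD, n = 3). The enzyme sum is 8731 to 10324 TPM in the 6 SKNAS libraries and 14339 to 20011 TPM in the other 12.

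The sum of the enzymes did not separate the arms in any line. It was 9444 ± 810 TPM in SKNAS Hmx1 and 18499 ± 1498 TPM in LAN-1 Hmx1, with 17013 ± 2586 and 18443 ± 1451 TPM in the KELLY control and Hmx1 arms (n = 3).

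Other genes of the same pathways were counted from lists drawn up by function. Among 34 further HIF targets tested, 4 changed in SKNAS Hmx1 (2 higher, 2 lower), which is 11.8% of the list beside 8.76% of all genes. PLOD2, a lysyl hydroxylase of collagen, had the largest fall: 35.6, 30.5 and 28.9 TPM in controls and 5.69, 4.21 and 5.76 TPM in Hmx1 (-2.40, SE 0.213, adjusted p = 4.46e-07). CXCR4, a chemokine receptor, rose from 0.275, 0.0731 and 0.494 TPM to 3.71, 4.30 and 2.60 TPM (1.82, SE 0.253, adjusted p = 8.32e-05). The arms of both genes were far apart, and both effects also differed from those in LAN-1 and KELLY (adjusted p of 0.00629 or less in the 4 tests). MXI1, a MYC antagonist, rose by 0.71 (adjusted p = 0.0262), and HILPDA, a lipid droplet protein, fell by 0.50 (adjusted p = 0.0468). MXI1 passed in 8 and HILPDA in 6 of 13 alternatives, and HILPDA did not pass without any one of the 6 SKNAS libraries. The HILPDA effect also differed between SKNAS and KELLY (-1.12, adjusted p = 0.00322).

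Of 13 further oxygen-sensing genes, 2 rose in SKNAS and none fell, where 4.96% of all genes rose and 3.80% fell. ARNT2, a HIF beta subunit, rose by 1.14 (adjusted p = 0.0180) and HIF3A, another alpha subunit, by 0.50 (adjusted p = 0.0381), in 9 and 6 of 13 alternatives. Of 18 glycolysis regulators and pyruvate entry genes tested, SLC2A10, a facilitative glucose transporter, fell by 0.85 (adjusted p = 0.00871), and none of 8 tested isoenzymes was called. In LAN-1 and KELLY none of these genes was called by limma. Among the HIF targets 3 in LAN-1 and 4 in KELLY had an unadjusted p under 0.05, beside 7.19% and 6.85% of all genes.

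Between control arms, the further HIF targets moved in both directions. SKNAS had 10 lower and 6 higher than LAN-1 (20.5% and 31.5% of all genes), led by CXCR4 (-4.67) and the transcriptional repressor BHLHE40 (-4.32) and, upwards, by IGFBP3, a binding protein of insulin-like growth factors (3.44), and the collagen crosslinker LOXL2 (3.30). Against KELLY 13 were lower and 12 higher (16.1% and 49.5% of all genes), BHLHE40 (-3.02) and LOXL2 (4.24) among them, and the list's median moved from 0.06 in TPM to -0.51 by median ratio. LAN-1 exceeded KELLY in 19 and was lower in 5 (38.2% and 13.6% of all genes), with a median of 0.69 in TPM and 0.21 by median ratio, the lower ones including IGFBP3 (-2.75) and the surface carbonic anhydrase CA12 (-2.26). ARNT2 was the largest difference of the sensing list for SKNAS (-4.17 against LAN-1 and -3.48 against KELLY), and HIF3A was higher there (2.49 and 2.91).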

How the data were processed

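Bulk RNA of xenograft tumours was sequenced in 18 libraries (TruSeq Stranded mRNA, per the labels' protocols). The authors deposited gene tables with TPM, FPKM and coverage per Ensembl identifier, per the file headers; the submitters' processing notes name bcl2fastq, STAR and FastQC and the builds GRCh38.p12 and GRCh37. For the gene-table tool, annotation, use of strand and removal of mouse reads, nothing is given in the sources used here. Coordinates were read as GRCh37, since the last gene on chromosome 1 ends at 249231242, past the last RefSeq GRCh38 gene end there (248937099). Symbols came from a reference table (52181 of 63677 identifiers).

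Deposited TPM were tested as log2(TPM + 1) with limma 3.58.1 in R 4.3.3, over 18 libraries in 6 groups and 18650 genes with at least 1 TPM in at least 3 libraries, for 9 comparisons with Benjamini-Hochberg adjustment. All 39 matched genes passed the filter. This scale understates the change of low genes. Deposited FPKM served as an alternative, beside a pseudocount of 0.1, no filter, median-ratio and quantile scaling, removal of mitochondrially encoded genes, fits of the compared groups only and leaving out each library; coverage as deposited by the authors was not used. Leaving out KELLY control replicates 1 and 3 together was chosen after seeing the data, and leaves replicate 2 as the only KELLY control. The test was tried on simulated data.

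Values per library are given for HIF1A, EPAS1, CA9, VEGFA, SLC2A1, LDHA and PDK1, for genes called in an Hmx1 comparison, for the 4 largest differences of each control comparison and, where none was called, for the 3 largest of an Hmx1 comparison. The genes and lists were chosen with earlier results of these data known.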

Additional observations from a re-analysis of the deposited data

Results flagged for a closer look

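The effect of the Hmx1 arm differed between lines, by a direct test of the difference in limma, for STC1 and CA9. For STC1 the effect in SKNAS minus that in LAN-1 was -1.36 on the log2(TPM + 1) scale (SE 0.295, adjusted p = 0.00869), and minus that in KELLY it was -2.12 (SE 0.295, adjusted p = 0.000181). For CA9 the effect in SKNAS minus that in KELLY was -2.11 (SE 0.540, adjusted p = 0.0301), a call that 10 of 20 alternatives kept.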

How the results depend on the processing

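Of the 7 SKNAS calls 2 (ENO1, STC1) held under all alternatives, as did 23 of 29 calls for SKNAS minus LAN-1, 17 of 25 for SKNAS minus KELLY and 17 of 27 for LAN-1 minus KELLY. Under quantile normalization 2 control differences turned: PKM in SKNAS minus LAN-1 to 0.071 and LDHB in SKNAS minus KELLY to 0.042. Calls on the SKNAS minus LAN-1 difference in effect numbered 1, and 2 in FPKM, 3 by median ratio and without mitochondrially encoded genes, and 4 by quantile normalization and with only the compared groups. For SKNAS minus KELLY they numbered 2, and 1 with no filter, 5 in FPKM and by median ratio, and 6 by quantile normalization. For LAN-1 minus KELLY they numbered 0, and 1 by median ratio. The cause of these shifts was not tested. Leaving out 1 library gave 4 to 6 calls in SKNAS (4 without control replicate 1 or 2), 0 to 1 in LAN-1 (1 without Hmx1 replicate 1), 0 to 1 in KELLY (1 without control replicate 2), 25 to 30, 23 to 26 and 23 to 28 in the control comparisons, and 1 to 2, 1 to 3 and 0 to 0 for the differences in effect. No paired analysis was possible because the labels hold no replicate numbers that libraries of different groups share. Depth limits were not examined, since TPM keeps no depth and the deposited coverage was not used.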
